A study of Mus musculus with 2 samples.

Results

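The DNA repair and damage checkpoint genes described here are 47 named genes out of 21145 genes with an expression value. These genes were chosen by symbol, with a rule that uses no measured value but with earlier results of these data known. They were measured in AML12 cells, a nontumorigenic mouse hepatocyte line of strain CD1/MT42, at passages 14 to 16. The cells carried either a lentivirus that expresses the long noncoding RNA H19 (the H19 library) or a control virus (the control library), and both lines were selected and kept in puromycin. Each line was sequenced as 1 library, which leaves 2 libraries without replicates: values carry no error, no difference was tested, and each statement holds for these 2 libraries only. A stable line is a selected population, and the sources used here name no other infection, so an effect of H19 and a difference between the selected lines cannot be told apart.

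Cells repair DNA by separate routes that match the kind of damage. Base excision repair removes single altered bases, nucleotide excision repair cuts out bulky lesions, mismatch repair corrects replication errors, and end joining and homologous recombination rejoin broken ends. The Fanconi anaemia proteins repair crosslinks between strands, and checkpoint kinases hold the cell cycle while repair proceeds. Homologous recombination uses the sister chromatid, and many genes of the recombination and Fanconi routes are known to be transcribed most in S and G2 phase, whereas end joining serves throughout the cycle.

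Levels are FPKM (read fragments per kilobase of a transcript and corrected for library size), with the control library first. Differences are on the scale of log2(FPKM + 1), with the control value subtracted from the H19 value, which understates differences of low genes. Genes with a mean of at least 1 FPKM over both libraries are called measured. H19 (ENSMUSG00000000031) had no FPKM above 0 in the control library and 4.72 FPKM in the H19 library, the direction the labels give. Of 13 hepatocyte markers 9 were measured, 7 of them lower and 2 higher in the H19 library. The keratin gene Krt8 was at 909 and 658 FPKM and Hnf4a, a transcription factor of hepatocytes, at 74.4 and 44.4 FPKM. Serpina1a fell most among the measured ones, from 2.12 to 0.192 FPKM. The 2 higher ones were Apoe (1.51 and 4.06 FPKM) and Cebpa (2.11 and 2.34 FPKM). Albumin, Alb, was at only 0.990 and 0.178 FPKM, and the urea cycle gene Cps1 was listed at 0 in the control library. Markers of other liver cells were mostly low or lower in the H19 library. Of 5 bile duct markers 4 were measured and 3 were at least 1.5-fold lower: the keratin genes Krt7 (39.7 and 10.6 FPKM) and Krt19 (382 and 219 FPKM) and Spp1 (389 and 222 FPKM), while Sox9 was at 8.02 and 11.07 FPKM. Of 6 stellate cell markers only Des was measured, at 3.43 and 0.893 FPKM. Of 5 leukocyte markers only Cd68 was measured, at 2.75 and 0.928 FPKM, and Ptprc, their common surface marker, was at 0.237 and 0.380 FPKM. No endothelial marker was measured. The part of these markers in the members' values was not tested. The files hold no read totals. Low values fell on a common step of 0.0454 FPKM times kilobases in both libraries, which would be about 22000000 fragments each if the step is 1 fragment. On that scale Fancf, the lowest member in the control library, rests on about 67.3 and 95.3 fragments, so its difference has a wide counting error.

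All 47 members were measured, and their summary values lay near those of all genes. The median log2 difference of the members was 0.06, beside 0.08 over all 11674 measured genes. Of the members 29 (61.7%) had a difference above 0, beside 58.9% of all measured genes. With a threshold of 1.5-fold (0.58 on the log2 scale), 8 members (17.0%) were higher in the H19 library, beside 8.99% of all measured genes, and 0 were lower, beside 6.21%. At 2-fold, 0 members were higher, beside 1.14% of all genes, and 0 were lower, beside 1.57%. The count of 8 depended on the scaling. It was 3 (6.38%) with the median difference of all genes set to 0, where 6.08% of all genes were higher and 8.15% lower, and again 3 with equal upper quartiles, where the shares of all genes were 6.01% and 7.94%. It was 4 (8.51%) with TPM, where the shares were 7.92% and 8.66%. The members that passed under every one of these scalings were Pms2, Fancb and Xrcc6, and no member was 1.5-fold lower under any.

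**Figure D1:**
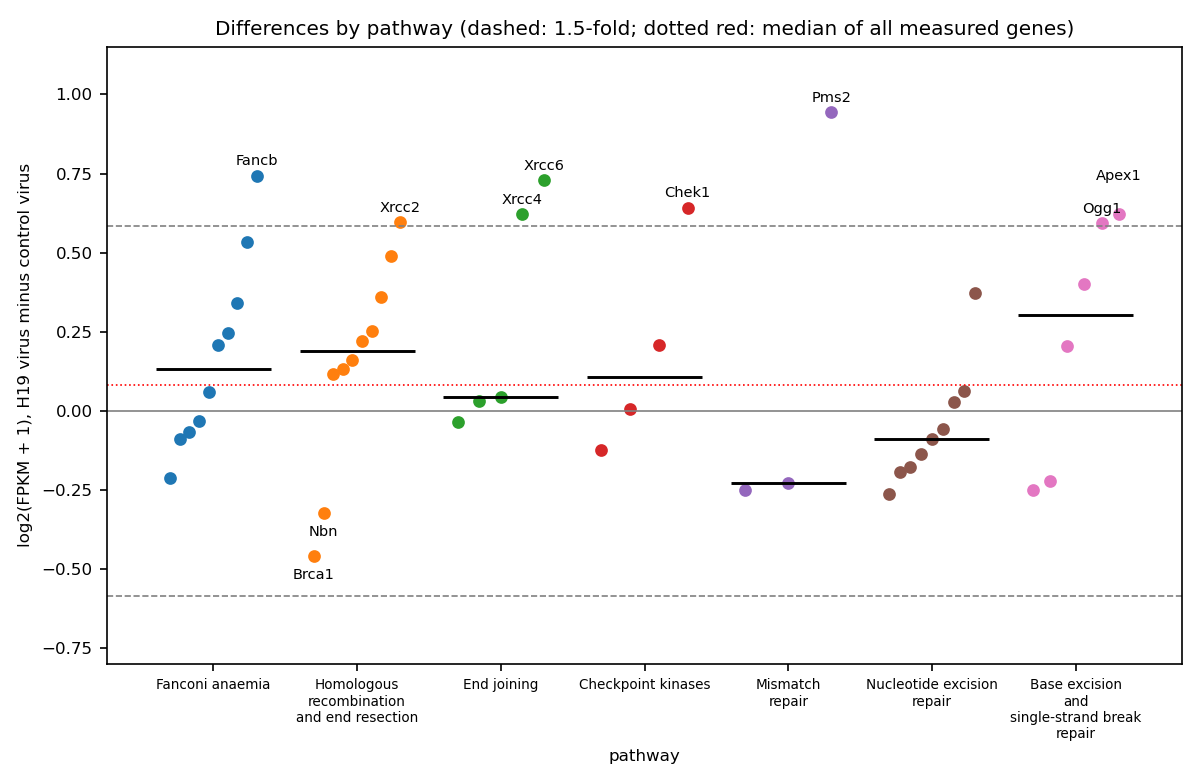
Each point is 1 member, placed by pathway, with the log2(FPKM + 1) difference between the H19 and control libraries on the y axis. Black bars are pathway medians, dashed lines mark 1.5-fold and the dotted red line the median of all measured genes (0.08); 8 members lie above the upper dashed line and 0 below the lower one.

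**Figure D2:**
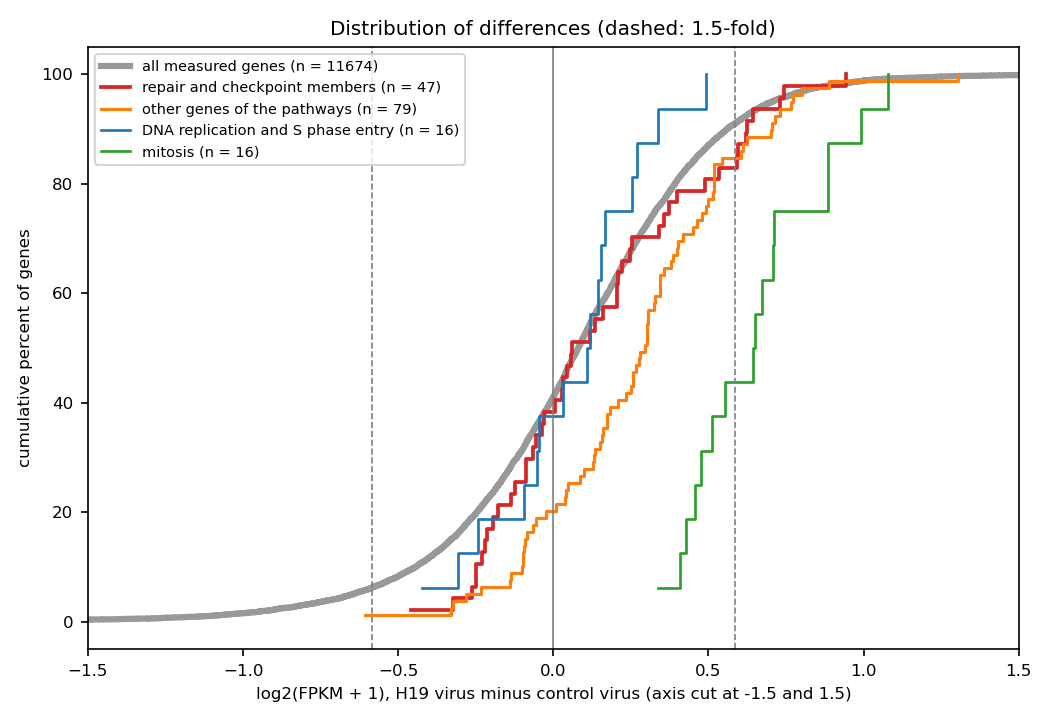
Cumulative percent of genes (y axis) against the log2(FPKM + 1) difference (x axis, with the extremes left out). The curve of the 47 members lies close to that of all 11674 measured genes around the median, has no member left of the lower dashed line and runs below the grey curve near the upper one, while the curve of the 79 other genes of the same pathways lies to its right.

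Mismatch repair held the largest difference. Pms2, the MutL subunit that nicks the new strand, was at 8.63 and 17.5 FPKM, a ratio of 2.03 and a log2 difference of 0.94. It was the only member in the authors' deposited table of differences, which holds 561 genes and gives Pms2 a log2 ratio of 1.02 with q = 1.50e-06 by a test between the 2 libraries; its method is not named. The 2 damage-recognition members went the other way. Msh6, a subunit that finds mispaired bases, was at 14.7 and 12.4 FPKM (log2 difference -0.23). Msh3, the subunit for longer loops, was at 7.75 and 6.36 FPKM (-0.25). Pms2 was thus higher and Msh3 and Msh6 lower, under the values as deposited and under TPM, a median of 0 and equal upper quartiles.

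The start of Pms2 (chromosome 5, 143909964 to 143933968, plus strand, GRCm38) lies 117 bases from that of Aimp2, a scaffold gene of the tRNA synthetase complex, which is transcribed the other way. Aimp2 was at 40.8 and 94.9 FPKM (log2 difference 1.20), so both genes of this divergent pair were higher by more than the 1.5-fold threshold. Genes that share exonic bases with Pms2, Rsph10b and Gm42421, were at 0.128 FPKM or less in each library. The deposited locus of Pms2 spans 3.16 times the annotated gene, and how this bears on its value was not tested. To show the shared region and what the starts of the most different members have in common, 300 bases around the RefSeq starts of the 4 members with the largest differences follow, from 250 before to 50 after the start, read on the gene's strand. Capitals mark matches on either strand to CCAAT, to the E2F words TTTCCCGC, TTTCGCGC, TTTGCCGC and TTTGGCGC, to the CHR word TTTGAA and its variant TTCGAA, and to GGCGGGAA, a further E2F word added after the Chek1 window was seen. The windows are chr5:143909751-143910050 (plus strand), chrX:164980342-164980641 (plus), chr15:82016119-82016418 (plus) and chr9:36726609-36726908 (minus), all GRCm38.p6.
Pms2: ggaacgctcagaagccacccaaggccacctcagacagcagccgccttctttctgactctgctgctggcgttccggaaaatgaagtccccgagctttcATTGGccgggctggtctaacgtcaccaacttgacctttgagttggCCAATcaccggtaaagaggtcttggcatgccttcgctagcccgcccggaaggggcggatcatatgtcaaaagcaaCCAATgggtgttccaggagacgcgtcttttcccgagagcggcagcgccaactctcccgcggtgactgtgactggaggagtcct
Fancb: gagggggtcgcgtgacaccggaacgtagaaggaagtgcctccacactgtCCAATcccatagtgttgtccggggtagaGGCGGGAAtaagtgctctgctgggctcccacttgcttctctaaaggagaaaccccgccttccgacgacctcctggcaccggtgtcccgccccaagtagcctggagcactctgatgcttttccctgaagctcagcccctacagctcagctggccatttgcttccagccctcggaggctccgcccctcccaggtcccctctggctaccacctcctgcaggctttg
Xrcc6: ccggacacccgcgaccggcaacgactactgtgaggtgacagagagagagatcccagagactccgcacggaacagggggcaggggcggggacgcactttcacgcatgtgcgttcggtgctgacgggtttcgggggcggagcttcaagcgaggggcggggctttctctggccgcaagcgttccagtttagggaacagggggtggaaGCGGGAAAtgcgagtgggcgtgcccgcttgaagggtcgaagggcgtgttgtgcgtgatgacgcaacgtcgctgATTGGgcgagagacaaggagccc
Chek1: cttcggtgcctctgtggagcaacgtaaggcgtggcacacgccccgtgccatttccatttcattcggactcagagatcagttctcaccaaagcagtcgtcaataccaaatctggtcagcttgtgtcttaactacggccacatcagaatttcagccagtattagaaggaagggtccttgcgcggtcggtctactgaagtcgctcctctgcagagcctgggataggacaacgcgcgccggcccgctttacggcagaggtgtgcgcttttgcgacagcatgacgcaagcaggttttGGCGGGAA
The Pms2 window holds 3 CCAAT matches, at positions 98, 143 and 218 of the window, and the annotated start of Aimp2 falls at position 97. The Fancb window holds CCAAT at position 50 and GGCGGGAA at 78, with the start of its divergent neighbour Mospd2 at position 34. In Xrcc6 an E2F word lies at position 205 and CCAAT at 278, and in Chek1 GGCGGGAA lies at position 293, past the start. Of the members 38 had at least 1 window, 41 windows in all. An E2F word was in 8 of the 41 (19.5%), beside 2.26% of all 32851 windows of this length. CCAAT was in 24 (58.5%, beside 37.4%), a CHR word in 4 (9.76%, beside 19.2%) and GGCGGGAA in 5 (12.2%, beside 2.19%). GGCGGGAA can overlap an E2F word by 7 bases. It was taken from the Chek1 window, which is among those counted, so its share in the members is raised by that choice. The members with an E2F word were Brca2, Chek2, Fancg, Msh3, Msh6, Rad51c and Xrcc6, which went both ways. Only 1 of the 7 members with a window that were at least 1.5-fold higher, Xrcc6, was among them. CCAAT was in 5 of these 7, beside 23 of all 38 members with a window. GGCGGGAA was in 2 of the 7, beside 5 of the 38, and a CHR word in 1, beside 4.

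Of the 47 members 17 (36.2%) had a gene on the other strand that starts within 1000 bases and points away, beside 14.4% of all 11649 measured genes with a position. Of these neighbours 15 were measured. In 9 of the 15 pairs both differences had the same sign, beside 64.7% of 637 such pairs among all measured genes. Pms2 and Aimp2 were the only pair in which both were at least 1.5-fold higher. Fancb was at 3.22 and 6.07 FPKM (log2 difference 0.74), while Mospd2, which starts 217 bases away, was at 26.02 and 32.4 FPKM (0.30). Palb2, the bridge between Brca1 and Brca2, was at 2.71 and 3.76 FPKM (0.36), and Dctn5, a dynactin subunit that starts 56 bases away, was at 37.8 and 57.7 FPKM (0.60). Apex1 and Osgep start 75 bases apart and went opposite ways: Osgep was at 12.7 and 9.96 FPKM (-0.32). For the kinase gene Prkdc and Mcm4, a subunit of the replicative helicase, which start 466 bases apart, the differences were -0.04 and 0.17.

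**Figure D3:**
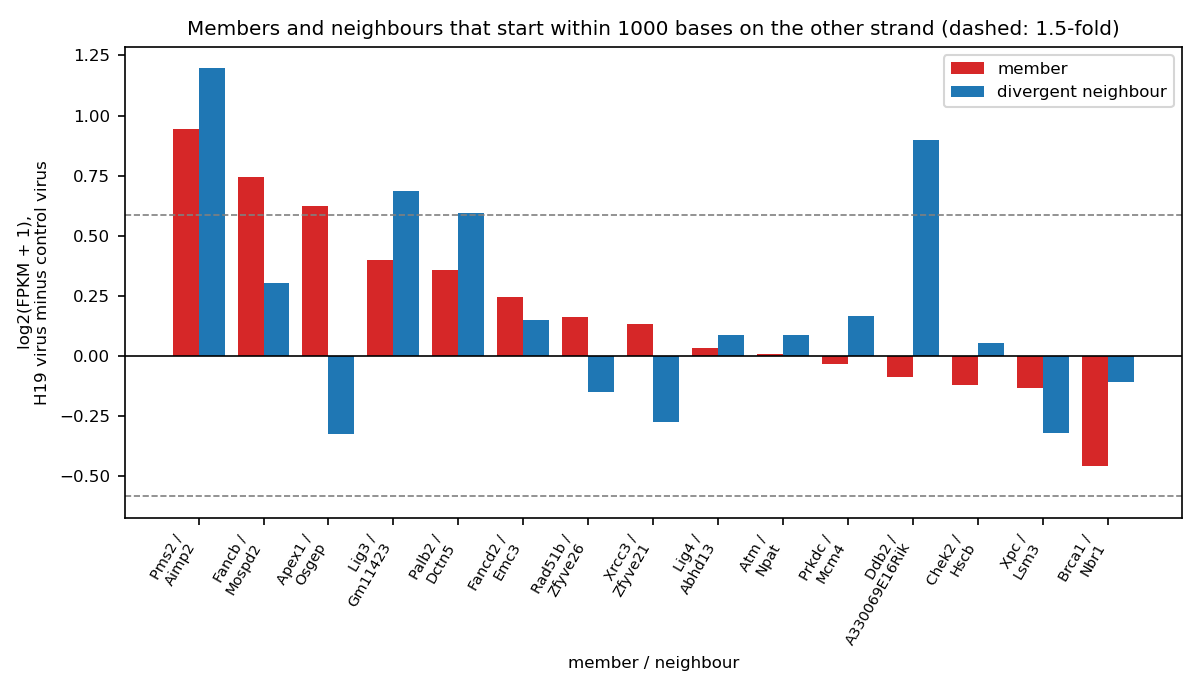
Log2(FPKM + 1) differences (y axis) of the 15 members with a measured divergent neighbour (red bars) and of that neighbour (blue bars), in order of the member's difference; dashed lines mark 1.5-fold. Pms2 and Aimp2 (0.94 and 1.20) are the highest pair, and Apex1 and Osgep (0.62 and -0.32) point opposite ways.

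End joining had 2 genes at least 1.5-fold higher among its 5. Xrcc6, which encodes the Ku70 subunit of the ring that binds broken ends, was at 37.0 and 62.0 FPKM (log2 difference 0.73). Its partner Xrcc5, which encodes Ku80, was at 25.6 and 26.5 FPKM (0.04). The ratio of Xrcc6 to Xrcc5, which does not depend on the scaling of the libraries, went from 1.44 in control cells to 2.35 in H19 cells. Xrcc4, the scaffold of the ligation step, was at 9.69 and 15.4 FPKM (0.62). Its ligase Lig4 was at 6.24 and 6.40 FPKM (0.03), so this ratio also went from 1.55 to 2.41. In each of these complexes, then, 1 partner transcript was past 1.5-fold and the other near level. Prkdc, which encodes the large kinase DNA-PKcs, was at 4.22 and 4.09 FPKM (-0.04). The median of the 5 was 0.04, below the 0.08 of all measured genes, and it turned below 0 under the 3 other scalings but was 0.33 with at least 5 FPKM, which leaves out Prkdc. The further genes of the route, Nhej1, Dclre1c, Polm and Poll, had a median of 0.33, and none was 1.5-fold different.

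Base excision and single-strand break repair had the highest pathway median, 0.30, with 4 of 6 genes above 0. Its genes past 1.5-fold, Apex1 and Ogg1, were under that threshold with TPM, the median of all genes set to 0 and equal upper quartiles. Apex1, the main endonuclease at sites that have lost a base, was at 24.5 and 38.3 FPKM (log2 difference 0.62). The Apex1 value is uncertain, because 61.7% of its exonic bases in the annotation are shared with Tmem55b on the other strand (20.6 and 23.2 FPKM), and use of strand is not given in the sources used here. Ogg1, the glycosylase for oxidised guanine, was at 12.9 and 19.99 FPKM (0.59), just past the threshold, with 10.6% of its exonic bases shared with Camk1. Lig3, the ligase of single-strand break repair, was at 15.05 and 20.2 FPKM (0.40), with 25.1% shared with Rffl, and its scaffold Xrcc1 was at 17.0 and 19.8 FPKM (0.21). Lower values were those of Parp1, the sensor of broken strands, at 20.8 and 17.3 FPKM (-0.25), and of Ung, the uracil glycosylase, at 4.59 and 3.79 FPKM (-0.22). The 14 other measured genes of the route had a median of 0.17. Aptx (3.62 and 6.88 FPKM), which removes failed ligation ends, and the flap nuclease Fen1 (24.1 and 37.3 FPKM) were at least 1.5-fold higher. That is 14.3% of the 14, beside 8.99% of all measured genes.

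Fanconi anaemia genes were low and mixed, with a median difference of 0.13 over 10 genes and 1 past 1.5-fold. The core complex joins ubiquitin to the Fancd2-Fanci pair. Within its catalytic module Fancb (3.22 and 6.07 FPKM, chromosome X) had a log2 difference of 0.74 and Fancl, the ubiquitin ligase, was at 14.8 and 21.8 FPKM (0.53), the first member below the threshold. Fancf, an adaptor with a single exon, was at 1.81 and 2.56 FPKM (0.34), and Fance, which contacts Fancd2, was at 13.2 and 15.4 FPKM (0.21). The other core genes were level or lower. Fanca was at 8.23 and 7.81 FPKM (-0.07), Fancc at 2.53 and 2.46 FPKM (-0.03) and Fancg at 3.87 and 3.20 FPKM (-0.21). Fancm, the translocase that anchors the complex to DNA, was at 1.92 and 1.74 FPKM (-0.09). The target pair showed small differences: Fancd2 was at 5.80 and 7.06 FPKM (0.25) and Fanci at 5.46 and 5.73 FPKM (0.06). Genes of the same complex thus went both ways, from Fancg to Fancb.

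Homologous recombination held the lowest member, Brca1. Brca1, which directs broken ends towards recombination, was at 13.1 and 9.27 FPKM (log2 difference -0.46), under 1.5-fold, and its obligate partner Bard1 was at 2.69 and 3.26 FPKM (0.21). The ratio of Brca1 to Bard1 went from 4.88 to 2.84. Brca2, a mediator of strand exchange, was at 5.83 and 7.14 FPKM (0.25). In the complex that trims and tethers ends, Nbn was at 3.94 and 2.95 FPKM (-0.32) and Rad50 at 14.1 and 15.3 FPKM (0.12), so that Rad50 exceeded Nbn by 3.57 and 5.202 times. Xrcc2, Xrcc3, Rad51b, Rad51c and Rad51d, whose products work in strand exchange, all had differences above 0, under each alternative tried. Xrcc2 was at 5.94 and 9.498 FPKM (0.60), the only one of the 10 recombination members past 1.5-fold, and Rad51c, which belongs to both complexes of this group, was at 5.59 and 8.25 FPKM (0.49). Rad51d was at 9.29 and 11.0 FPKM (0.22), Rad51b at 1.89 and 2.22 FPKM (0.16) and Xrcc3 at 2.70 and 3.06 FPKM (0.13). The median of the 10 genes was 0.19.

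Checkpoint kinases differed at 1 of 4 genes. Chek1, the kinase that restrains Cdc25 phosphatases when replication stalls, was at 7.39 and 12.1 FPKM (log2 difference 0.64). Upstream of it Atr was at 7.74 and 9.09 FPKM (0.21). In the branch that answers broken ends, Atm was at 6.29 and 6.32 FPKM (0.01) and Chek2 at 10.2 and 9.24 FPKM (-0.12). Only Chek1 of these kinases passed the threshold. Chek1 was under 1.5-fold with the median of all genes set to 0 (0.56) or with equal upper quartiles. Members of the clamp that helps activate Atr were higher too: Rad9a was at 26.6 and 67.1 FPKM (1.31), the only 1 of the 79 other measured genes past 2-fold, and Rad1 was at 14.6 and 24.4 FPKM (0.71), while Hus1 was at 8.64 and 10.4 FPKM (0.24). In the authors' deposited table Rad9a has a log2 ratio of 1.34 (q = 0.000158).

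Nucleotide excision repair had no large difference. None of its 9 genes was 1.5-fold different, 6 of 9 were below 0, and the median was -0.09. Ddb1, the damage-binding subunit that is also the adaptor of Cul4 ubiquitin ligases, was by far the most abundant member, at 376 and 329 FPKM (log2 difference -0.19), and made up 45.04% and 37.8% of the summed FPKM of the 47 genes. Its lesion-binding partner Ddb2 was at 7.06 and 6.57 FPKM (-0.09), with 23.8% of its exonic bases shared with Acp2. The other damage recognition genes were also slightly lower: Xpc was at 10.7 and 9.65 FPKM (-0.14) and Xpa at 10.8 and 10.3 FPKM (-0.06). Of the helicases that open DNA, Ercc3 was at 26.9 and 22.2 FPKM (-0.26) and Ercc2 at 10.2 and 10.4 FPKM (0.03), the latter with 42.4% of its exonic bases shared with other genes. Among the nucleases that cut out the lesion, Ercc5 was at 11.9 and 10.4 FPKM (-0.18), Ercc1 at 12.8 and 13.4 FPKM (0.06) and its catalytic partner Ercc4 at 2.93 and 4.08 FPKM (0.37), the highest of the route. The 19 other genes of the route had a median of 0.34. Gtf2h2 (13.2 and 23.1 FPKM) and Ccnh (20.2 and 31.7 FPKM), both of the TFIIH complex, were at least 1.5-fold higher. That is 10.5% of the 19, beside 8.99% of all measured genes.

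**Figure D4:**
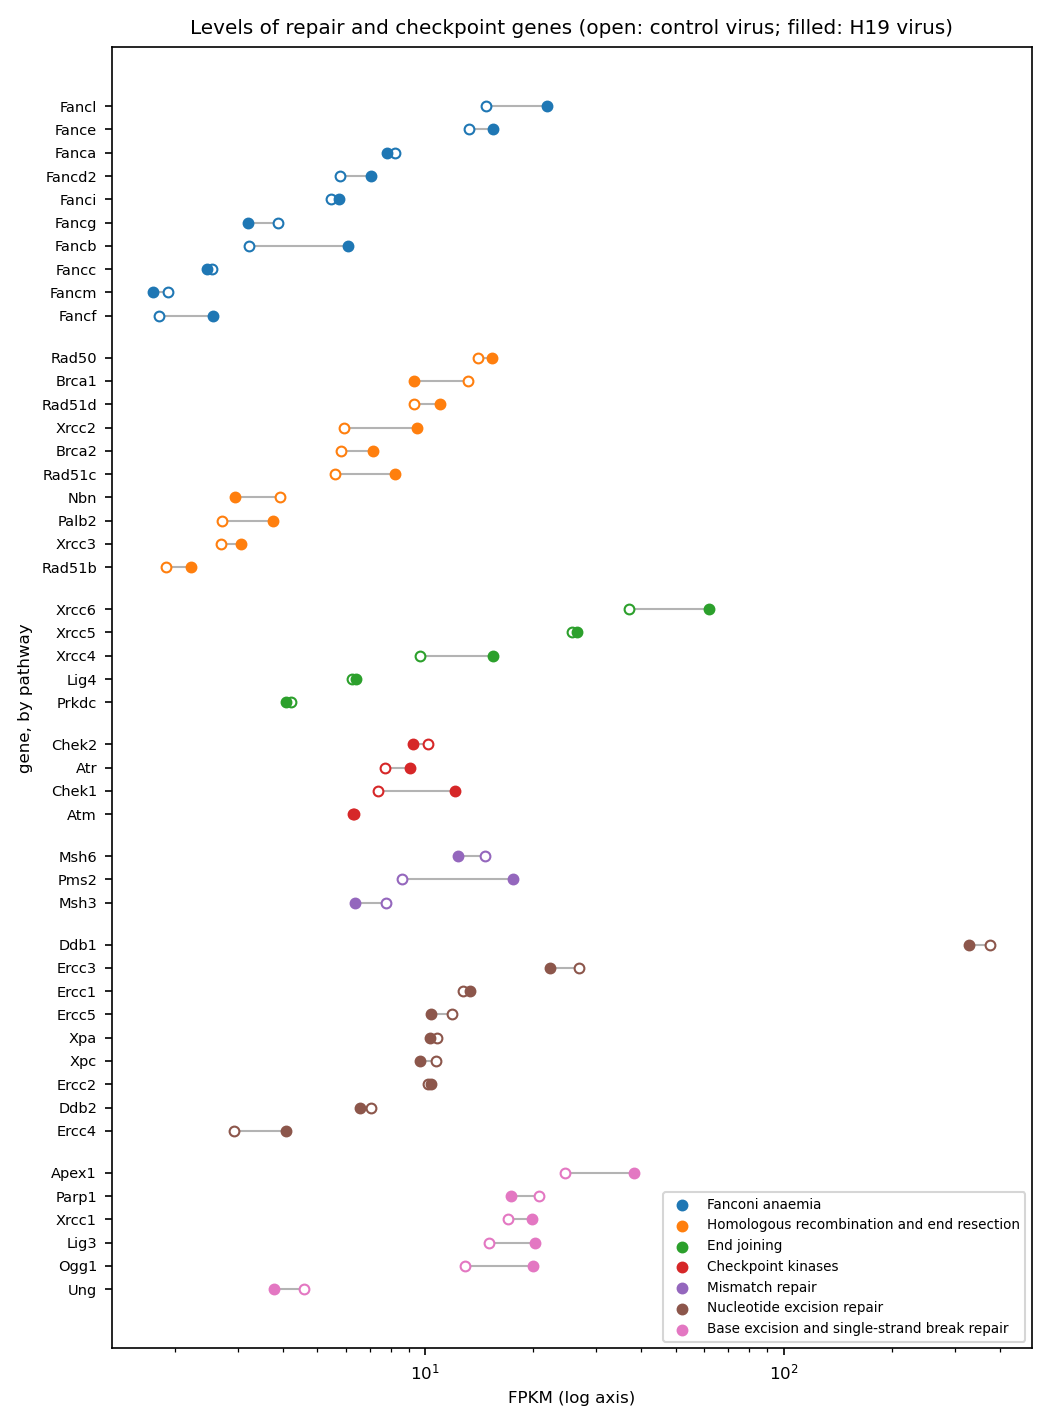
FPKM of each member on a log axis (x axis) by pathway, open circles for the control library and filled circles for the H19 library. Ddb1 (376 and 329 FPKM) lies far to the right of all others, 27 of 47 members were under 10 FPKM in the control library, and the longest lines belong to Pms2 and Fancb.

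Levels kept nearly the same order in both libraries at the top and bottom. Ddb1 was first and Xrcc6 second in both, and Rad51b was second lowest in both. The median member was at 8.23 and 9.27 FPKM, below the 12.7 and 13.5 FPKM of the median measured gene. Pms2 moved from rank 23 to rank 10 and Brca1 from rank 13 to rank 24. Without Ddb1 the members summed to 459 and 540 FPKM.

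The other genes of the same pathways leaned higher more than the members did. Of 79 measured genes 63 had a difference above 0, beside 58.9% of all measured genes, and the median was 0.29. At least 1.5-fold higher were 12 (15.2%), beside 8.99% of all measured genes, and 1 was at least 1.5-fold lower, beside 6.21%. These counts were not repeated under the other scalings. Besides those named above, the higher genes included Blm, a helicase gene (3.50 and 6.39 FPKM), and the recombination genes Rad52 (11.3 and 18.95 FPKM) and Rad51ap1 (8.54 and 13.6 FPKM). The rest were the histone variant gene H2afx (15.5 and 26.3 FPKM) and the translesion genes Polh (3.21 and 6.81 FPKM) and Rev1 (9.00 and 16.4 FPKM). Cell cycle genes are given beside these because many repair genes vary with the cycle. All 16 mitosis genes had differences above 0 (0.34 to 1.08, median 0.65). Of these 9 (56.2%) were at least 1.5-fold higher, beside 8.99% of all measured genes. The 16 replication and S phase entry genes had a median of 0.11 and 0 were 1.5-fold higher. In bulk RNA, more cells in a phase and more RNA per cell cannot be told apart, and the part of cycle phase in the members' values was not tested. Exonic length moved with the differences over all genes, with a median of 0.11 in the shortest and 0.00 in the longest of 5 equal groups, and Spearman's rho between length and difference was -0.11 over the 47 members and -0.10 over 11649 genes, which are not independent replicates. The part of length was not tested.

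**Figure D5:**
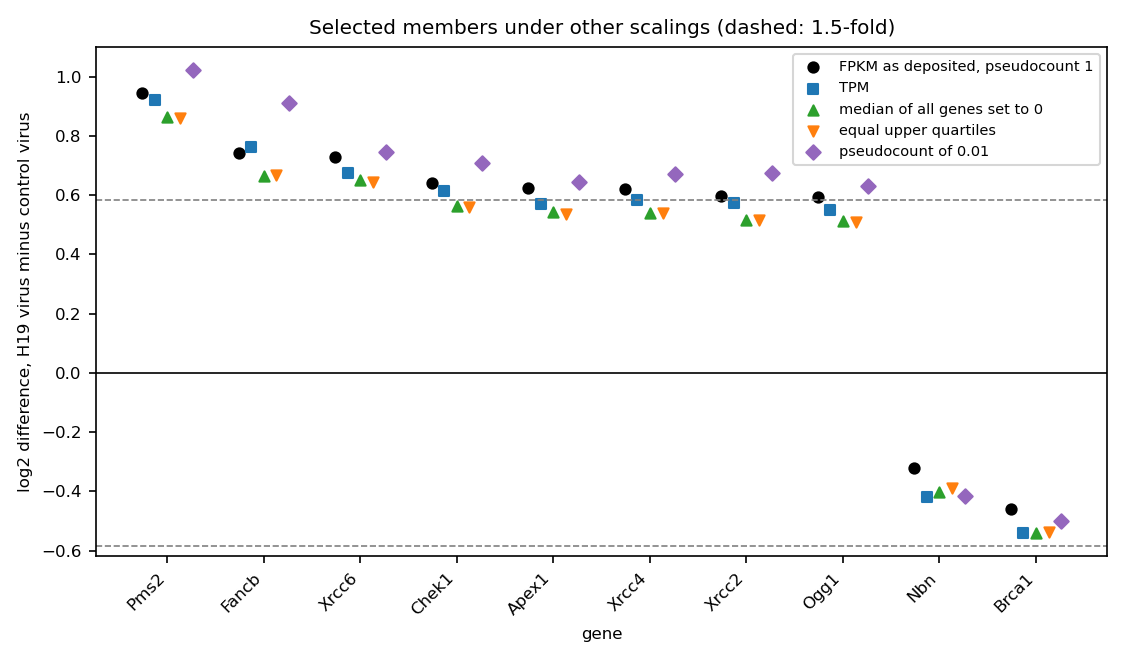
Log2 differences (y axis) of the 8 members at least 1.5-fold higher and of Nbn and Brca1 under the values as deposited and 4 other settings; dashed lines mark 1.5-fold. Pms2, Fancb and Xrcc6 stay above the line in each of the 5 settings, and Brca1 stays above the lower line in each.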

How the data were processed

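Expression was measured by RNA sequencing in 2 libraries of AML12 cells, 1 per group. The authors deposited FPKM per gene, per the file headers, in a table of both libraries and in 1 table per library, and these agreed for all 47 members. CASAVA 1.4, TopHat2 and build mm9 are named in the submitters' processing notes. How FPKM were computed, and whether strand was used, is not given in the sources used here. Deposited loci of all 47 members overlap their GRCm38 positions in GENCODE M21, so GRCm38 coordinates are given. Of these loci 12 span over 2 times the gene, among them those of Pms2, Apex1 and Ogg1. The widest against the gene were those of Fanca (88.2 times) and Fancf (79.5 times). The authors' deposited table of differences gives p-values, q-values and a log2 ratio, per the file headers. The authors' log2 ratio, a score here because a very large number stands for infinity, is that of H19 over control FPKM with no pseudocount, per the file headers and the values.

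From the FPKM, log2(FPKM + 1) was compared between the libraries, with a mean of at least 1 FPKM required and a threshold of 1.5-fold. The code of the rule was run on simulated data with little noise and changes larger than those of any member. That run could only show that the threshold is applied as stated, and it says nothing about error in these libraries. Members and lists were chosen with earlier results of these data known, and the partner ratios were chosen after values were seen. Some results on genes outside the members are not reported here. Every member is named. Other pathway genes are named if at least 1.5-fold higher, and some as partners or neighbours of members. Promoter sequences are from RefSeq (GRCm38.p6), matched by symbol for 38 members; annotated starts and exons are from GENCODE. The comparison was repeated with a pseudocount of 0.1 or 0.01, without the filter, with at least 5 FPKM, with 3 scalings, with other thresholds and with means over members. Python 3.11.15, numpy 2.4.6 and pandas 2.3.3 were used.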

Additional observations from a re-analysis of the deposited data

How the results depend on the processing

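No paired analysis was possible because each group has 1 library. With 1 library per group, no sample could be left out and no direction has a replicate check. The count of 8 members at least 1.5-fold higher was 3 with the median of all genes set to 0, 4 with TPM and 3 with equal upper quartiles, 0 at 2-fold, and 14 at the lowest threshold tried, where 2 members, Brca1 and Nbn, were lower. The median of 0.06 was 0.0673 and 0.0683 with pseudocounts of 0.1 and 0.01, 0.144 as a mean, 0.00415 with TPM, -0.0189 with the median of all genes set to 0 and -0.0164 with equal upper quartiles. The end joining median was -0.0179, -0.0361 and -0.0406 under TPM, the median setting and equal upper quartiles, and 0.332 with at least 5 FPKM, which leaves out Prkdc. That filter also gave a Fanconi median of 0.208, with 0 genes 1.5-fold higher. No other pathway median turned sign under these alternatives. For single genes 35 members had a value in 8 alternatives and 12 in 7, since the 5 FPKM filter drops these; 41 kept their sign in each that gave a value and 6 did not: Atm, Ercc1, Ercc2, Fanci, Lig4 and Xrcc5. Depth limits the lowest genes most, and stepped values give only a rough depth.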

Other observations

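Besides the divergent neighbours that point away described above, further members have a start that overlaps that of a gene on the other strand. Ddb1 and the kinase gene Tkfc were both lower, with Tkfc at 33.0 and 22.3 FPKM (log2 difference -0.55). Xrcc4 and Tmem167 were both higher, with Tmem167 at 7.80 and 10.3 FPKM (0.36), as were Fancf and Gas2, with Gas2 at 1.69 and 2.07 FPKM (0.19). These pairs were listed after the values were seen, and reads from the shared bases cannot be assigned to a strand from these files. The noncoding neighbour A330069E16Rik of Ddb2 was at 0.903 and 2.54 FPKM (0.90) while Ddb2 was at 7.06 and 6.57 FPKM.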
